A study of Mus musculus with 20 samples.

Results

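The transcripts described here encode 9 proteins of the mouse sperm tail: Akap3, Akap4, Fsip1, Ropn1 and Ropn1l of the fibrous sheath, Odf1, Odf2 and Odf3 of the outer dense fibres, and Smcp of the mitochondrial sheath. They were chosen by gene symbol, and every probe set that the platform annotation gives 1 of these symbols was taken: 21 of 45101 probe sets, for 9 of 18193 named genes. Odf2 had 5 probe sets, Akap4 and Odf1 had 3 each, Akap3, Odf3, Fsip1 and Ropn1l had 2 each, and Ropn1 and Smcp had 1 each. The study followed the mouse testis after birth on 20 single-colour arrays, with 2 arrays for each of days 0, 3, 6, 8 and 10, and likewise for days 14, 18, 20, 30 and 35. The RNA was Trizol-extracted total RNA. The labels give no treatment, genotype, strain or pooling of animals, so that day is the only difference they state between groups. They do not say that the arrays of a day came from separate animals, and p-values therefore measure only the spread between these samples, which may be technical. One array, day 18 replicate 2 by its title, names day 0 in its source label, and its title was followed here. On it Ropn1l probe set 1423959_at read 3993, against 3622 on the other day 18 array and 78.6 and 85.1 on day 0. Odf2 probe set 1426040_a_at read 833, against 788 on the other day 18 array and 45.8 and 36.2 on day 0.

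The sperm tail is built around an axoneme. Outer dense fibres, stiff rods rich in cysteine, run beside the axoneme, mitochondria wrap the midpiece, and the fibrous sheath, a cage of longitudinal columns and ribs, encloses the principal piece. The sheath anchors protein kinase A and glycolytic enzymes near the axoneme. These parts are assembled in spermatids, the haploid cells that follow meiosis. In the first wave of spermatogenesis meiotic cells appear first, then round spermatids, and then elongating spermatids.

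Values are intensities on a linear scale, and differences are of log2(intensity + 7.84), where the constant is the 20th percentile of all values, with standard errors (SE). A probe set was called where limma's moderated test gave a Benjamini-Hochberg adjusted p under 0.05 over the 37292 probe sets tested and the difference was at least 1 on the log2 scale (2-fold). Day means are given ± SD (n = 2 arrays). Consecutive comparisons share the arrays of the day between them. In whole testis, fewer cells of a type and less RNA per cell cannot be told apart.

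Pearson's r between the arrays of a day was lowest on day 30 (0.934) and highest on day 6 (0.981). The faint end of the scale shifted between days 14 and 18: the 20th percentile of an array lay between 5.12 and 6.65 up to day 14 and between 9.41 and 12.9 from day 18 on. Over 27 probe sets for bacterial control transcripts, the 95th percentile was 9.60 up to day 14 and 35.7 from day 18 on, and member intensities below these levels cannot be told apart from the controls. The germ cell markers Ddx4 and Dazl stood at 475 ± 55.3 and 1434 ± 75.4 on day 0 and at 1822 ± 247 and 1188 ± 338 on day 30. On day 14, between these, they stood at 1574 ± 36.3 and 3755 ± 91.8. Of 4 Sertoli cell markers, day means went from 563 ± 96.2 on day 0 to 191 ± 34.3 on day 30 for Wt1. They were likewise lower on day 30 for Sox9 and Amh, and higher for Gata1 (35.8 ± 2.37 and 99.7 ± 25.5). Gata1 had stood at 343 ± 3.04 on day 14, and from day 14 to day 30 the day means of all 4 went down. Of 4 Leydig cell markers, Cyp17a1 was higher on day 30 (1752 ± 67.1 and 2424 ± 57.3) and Cyp11a1, Hsd3b1 and Star were lower (Hsd3b1 3734 ± 101 and 654 ± 26.7), differences that were not tested. The summed intensity of 5 spermatid markers was between 36.6 and 113 up to day 18, between 306 and 339 on day 20 and between 36236 and 41269 on days 30 and 35. That of 7 epididymis markers was between 42.9 and 182 on all arrays, with no day mean of a single marker above 57.7. That of 5 markers of ciliated epithelium was between 62.8 and 103 up to day 10 and between 259 and 281 on day 14. It was between 1134 and 1283 on day 18, between 2102 and 2243 on day 20 and between 3751 and 4072 on day 30. On day 30 Dynlrb2 led (2212 ± 144), and Dynlrb2 was already called higher into day 14 (3.11 ± 0.21). The others stood at 1239 ± 119 for Fam183b, 246 ± 35.8 for the ciliary regulator Foxj1, 180 ± 107 for Sec14l3 and 34.4 ± 35.5 for Tmem212. The part of ciliated cells in the members' values was not tested.

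Each of the 9 genes had at least 1 probe set that changed over the time course. In all, 19 of 21 member probe sets passed the moderated F test with day means at least 2-fold apart, where 73.1% of all probe sets did. All 21 exceeded the filter on low values, but 10 did so only through days after day 14, and a count over probe sets admitted in that way does not by itself support a change. The highest day mean fell on day 30 or 35 for 20 probe sets and on day 20 for 1 of Odf2.

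**Figure D1:**
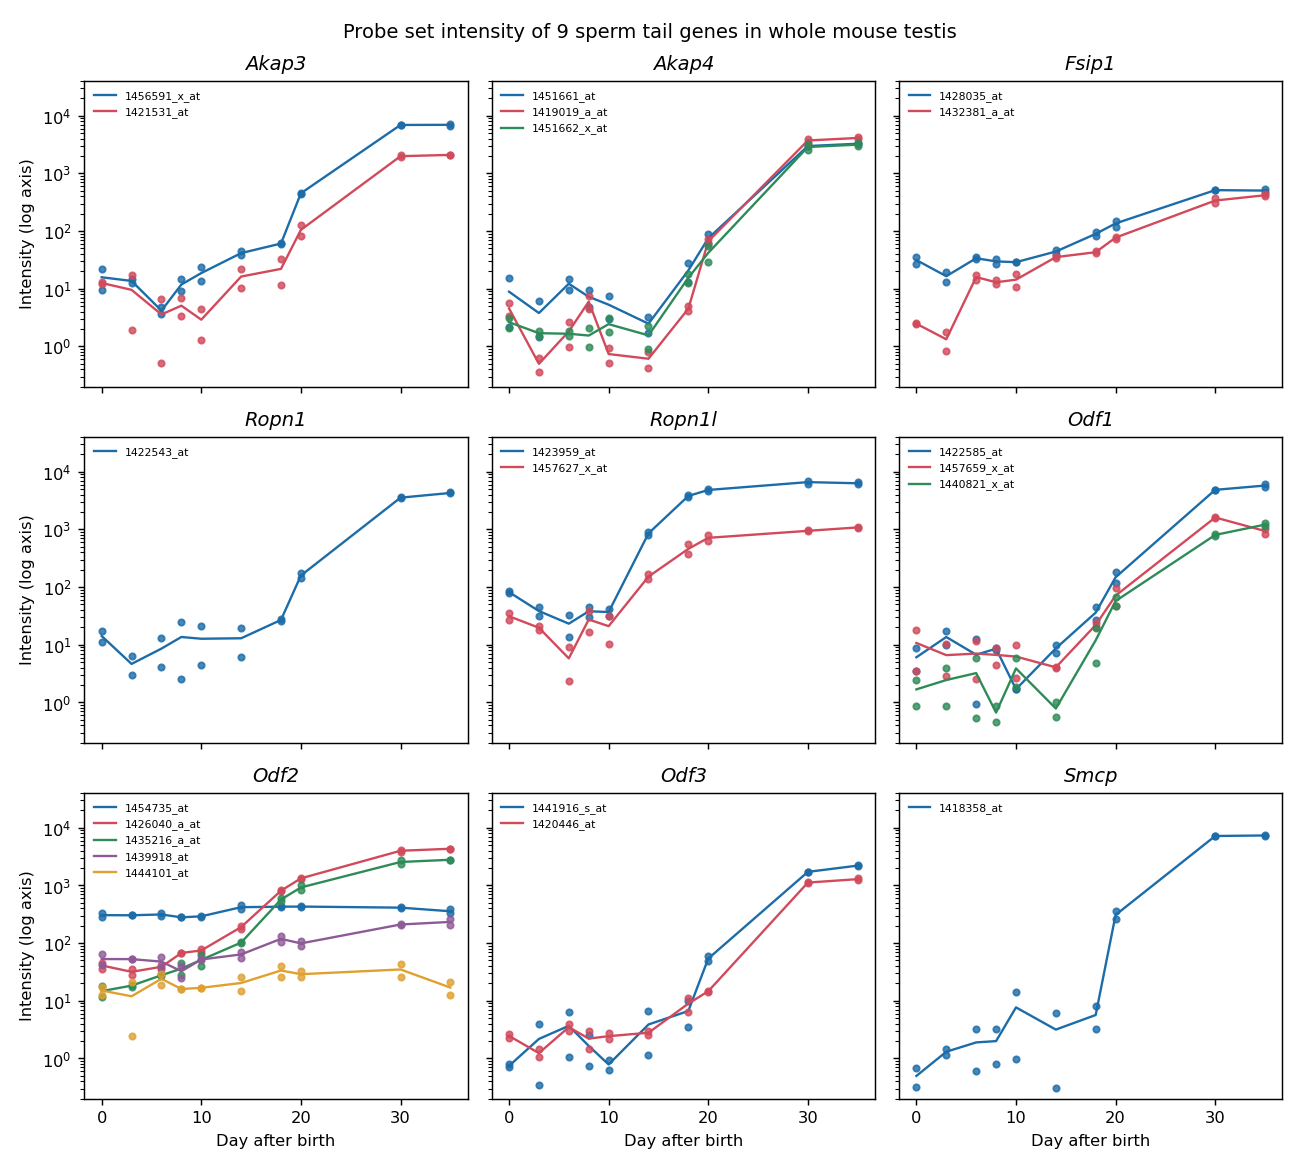
Intensity (log axis) against day after birth for the 21 probe sets, in 1 panel for each of 9 genes, with a point for each array and a line through the means of the 2 arrays of a day. Akap3, Akap4, Odf1, Odf3, Ropn1 and Smcp climb steeply after day 18, Ropn1l has already reached 917 and 793 on day 14, and the 5 Odf2 probe sets follow different courses.

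Akap3 and Akap4 are the main scaffolds of the fibrous sheath, A-kinase anchoring proteins that hold the regulatory subunits of protein kinase A. Akap3 rose after day 18 in both probe sets. In the brighter, 1456591_x_at, intensities lay between 3.59 and 23.6 (median 13.1) on the 10 arrays of days 0 to 10, at 44.4 and 38.7 on day 14 and at 60.4 and 61.3 on day 18. They were 448 and 457 on day 20, 6986 and 6863 on day 30 and 7163 and 6768 on day 35. The arrays of each day lay above those of the one before from day 10 to day 30, and those of days 30 and 35 overlapped. The rise was 2.74 ± 0.23 from day 18 to day 20 (adjusted p = 5.91e-07) and 3.91 ± 0.23 from day 20 to day 30 (adjusted p = 9.04e-11). The probe set 1421531_at read 127 and 83.3 on day 20 and 1905 and 2076 on day 30, a rise of 4.17 ± 0.42. Its rise into day 20 (1.98 ± 0.42) was no longer called without day 18 replicate 1 (1.45), without day 20 replicate 1 (1.70) or with the 5th percentile as the added constant (2.30).

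Akap4, on the X chromosome, was low up to day 18 and rose steeply after it. In probe set 1419019_a_at the 14 arrays of days 0 to 18 lay between 0.361 and 7.46 (median 1.82). It then read 73.4 and 59.6 on day 20, 4006 and 3447 on day 30 and 4354 and 3887 on day 35. Both arrays of day 20 lay above every earlier one and below days 30 and 35, which overlapped. The rise from day 20 to day 30 was 5.65 ± 0.27 (adjusted p = 5.79e-12), and it was 5.19 ± 0.37 in 1451661_at and 5.90 ± 0.30 in 1451662_x_at. Into day 20 the 3 probe sets rose by 2.58 ± 0.27, 1.57 ± 0.37 and 1.05 ± 0.30 in the same order. The first of these fell below the 2-fold limit with values floored at the pooled median (0.94). That of 1451661_at was no longer called without day 18 replicate 2 (1.17) or day 20 replicate 2 (1.33), or with the 5th percentile as the constant (1.85). That of 1451662_x_at was lost without day 18 replicate 1 (1.23), day 18 replicate 2 (0.88) or day 20 replicate 2 (0.67), with the constant at the 5th (adjusted p = 0.106) or 40th percentile (0.75), with the floor (0.33), and in a fit of the compared days alone.

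RefSeq start regions of assembly GRCm38.p6 were matched by symbol for 7 of the 9 genes, as 11 windows of 300 bases, since Odf2 has 4 starts and Akap4 has 2. Odf1 and Fsip1 were not in the table. The motif TGATGTCA, described below, is in windows of Akap3, Akap4 and Smcp. It is not in those of Odf3 and Ropn1, whose courses were also late. The 250 bases before the start are printed for 4 genes: Akap3, Akap4 and Smcp, late and with the motif, and Ropn1l, which differs in both. They run 5′ to 3′ on the strand of the gene. Capitals mark the longest run shared by Akap3 and Akap4 and, in Ropn1l, every CG pair; the other 3 stretches hold no CG pair.

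Akap3 (chr6:126852848-126853097, plus strand): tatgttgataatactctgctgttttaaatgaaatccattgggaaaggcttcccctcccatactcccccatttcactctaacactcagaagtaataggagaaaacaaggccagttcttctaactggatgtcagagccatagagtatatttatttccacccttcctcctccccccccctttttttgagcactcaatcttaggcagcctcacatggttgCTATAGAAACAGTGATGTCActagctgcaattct

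Akap4 (chrX:7067265-7067514, plus strand): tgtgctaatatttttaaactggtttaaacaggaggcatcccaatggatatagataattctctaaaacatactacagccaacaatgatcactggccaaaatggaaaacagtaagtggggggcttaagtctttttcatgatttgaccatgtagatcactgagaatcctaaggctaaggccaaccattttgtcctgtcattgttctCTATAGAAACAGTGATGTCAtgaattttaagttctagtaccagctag

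Smcp (chr3:92589074-92589323, minus strand): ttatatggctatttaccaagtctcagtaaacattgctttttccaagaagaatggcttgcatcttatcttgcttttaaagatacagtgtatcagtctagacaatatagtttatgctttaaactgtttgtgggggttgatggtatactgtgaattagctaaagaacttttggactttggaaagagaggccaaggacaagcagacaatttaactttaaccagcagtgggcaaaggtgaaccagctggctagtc

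Ropn1l (chr15:31453690-31453939, minus strand): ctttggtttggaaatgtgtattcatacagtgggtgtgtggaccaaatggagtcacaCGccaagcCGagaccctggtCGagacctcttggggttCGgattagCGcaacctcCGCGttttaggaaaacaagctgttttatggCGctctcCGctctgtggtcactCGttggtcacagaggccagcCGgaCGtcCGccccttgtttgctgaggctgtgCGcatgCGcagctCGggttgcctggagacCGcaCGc

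The run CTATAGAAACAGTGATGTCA, 20 bases long, lies 34 to 15 bases before the Akap3 start and 47 to 28 bases before the first Akap4 start, on the same strand. It came from comparing the members' own windows on both strands, where the next longest run shared by different genes had 14 bases (Akap3 and Odf2). Of all 32851 start windows, 2 hold it, or 0.00609%, those of Akap3 and Akap4. Its last 8 bases, TGATGTCA, resemble the palindromic cAMP response element TGACGTCA, the site of the CREB and CREM family of activators. On either strand TGATGTCA was in 3.62% of all windows and in 3 of 11 member windows. By gene, it was in 1130 of 27025 genes and in 3 of 7 members. Akap4 held the motif once, inside the shared run, Akap3 held it there and again across its start, and Smcp held it 24 to 31 bases after its start. The matches inside the run came with it, and the run was found in these same windows, so this count is not independent of that search. TGACGTCA was in 1.79% of all windows, and TATAAA, the letters of a TATA box, in 13.6%, and no member window held either. These are matches of letters and not measured sites.

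The 250 bases before the start held 0 CG pairs in Akap3, in Smcp and at both Akap4 starts, 1 in Odf3 and 2 in Ropn1. Ropn1l had 18, and the 4 Odf2 windows, which overlap, had between 22 and 35. The median over all start windows was 6. Of these 7 genes, Ropn1l and Odf2 had also reached the highest shares of their maximum by day 20, as given below, a description over 7 genes. Fsip1, which had reached 26.5% by day 20, has no window here, and which start the Odf2 probe sets read is not known. A link between CG pairs and course was not tested.

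**Figure D2:**
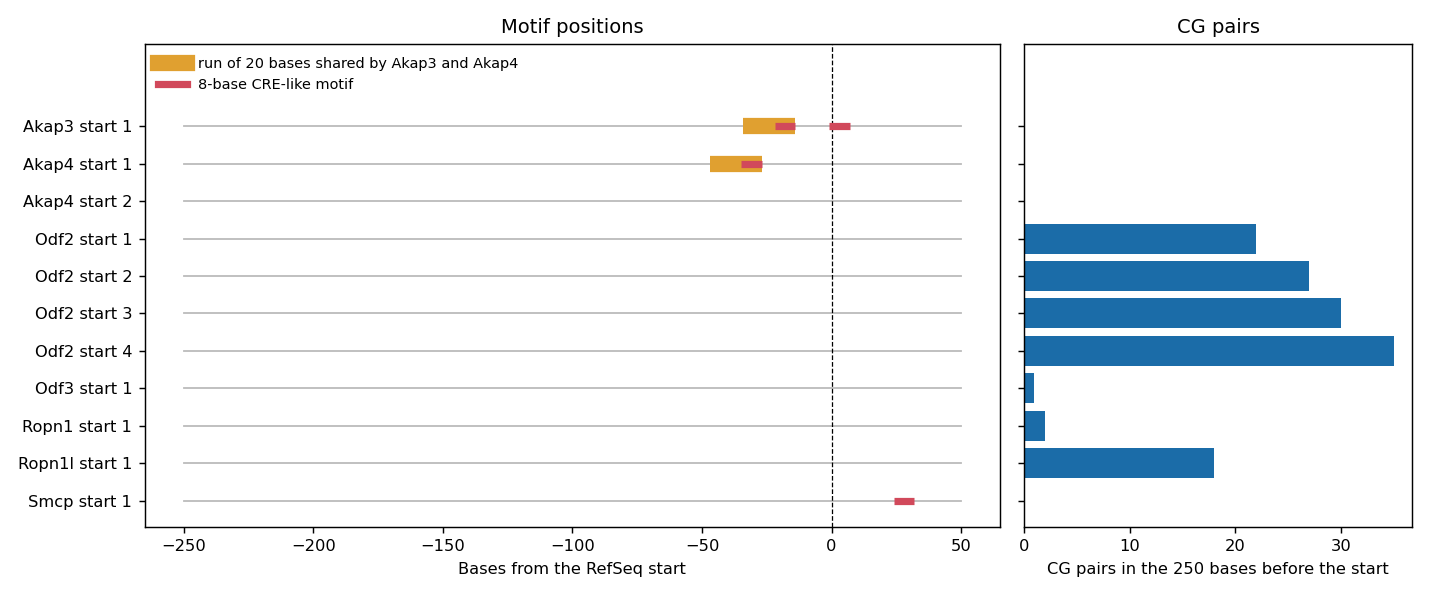
RefSeq start windows of 7 genes, 1 line for each of 11 starts. Left, position in bases from the start (dashed line at 0), with the 20-base run shared by Akap3 and Akap4 and the 8-base motif TGATGTCA marked in colour; right, the number of CG pairs in the 250 bases before each start, from 0 for Akap3, Akap4 and Smcp to 35 for 1 Odf2 start.

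Ropn1 and Ropn1l encode ropporin and a ropporin-like protein, sheath proteins with a domain like the one by which protein kinase A docks on its anchors. Of the 2, Ropn1l rose earlier. In probe set 1423959_at it lay between 13.4 and 85.1 (median 37.5) on the 10 arrays of days 0 to 10 and read 917 and 793 on day 14, 3622 and 3993 on day 18 and 4692 and 4983 on day 20. It reached 7028 and 6202 on day 30 and 6561 and 6078 on day 35. Each day lay above the one before without overlap from day 10 to day 30. The rises were 4.27 ± 0.22 from day 10 to day 14 (adjusted p = 2.03e-11) and 2.15 ± 0.22 from day 14 to day 18 (adjusted p = 2.52e-07). Into day 30 the difference was 0.45 ± 0.22 (95% interval from −0.00 to 0.90), which was not called. The probe set 1457627_x_at rose by 2.57 ± 0.32 and 1.53 ± 0.32 in the same steps.

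Ropn1 rose later. Its probe set lay between 2.51 and 28.5 (median 12.0) on the 14 arrays of days 0 to 18, with 25.4 and 28.5 on day 18. It read 175 and 143 on day 20, 3612 and 3502 on day 30 and 4378 and 4207 on day 35, and these days overlapped neither each other nor any earlier day. The rises were 2.25 ± 0.45 into day 20 (adjusted p = 0.00336) and 4.43 ± 0.45 into day 30 (adjusted p = 1.71e-07). Into day 14 its difference was 0.06 (95% interval from −0.87 to 0.998), and that of Ropn1l 1423959_at was 4.27 (from 3.82 to 4.72). The difference between the genes was not itself tested.

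In the first days Ropn1l fell. Probe set 1423959_at read 78.6 and 85.1 on day 0 and 32.1 and 41.9 on day 10, without overlap, a difference of −1.01 ± 0.22 (adjusted p = 0.00156). It lies at the 2-fold limit and was no longer called without day 0 replicate 2 (−0.95), without day 10 replicate 1 (−0.85), under quantile normalization (−0.86), with a common median (−0.94) or with the 40th percentile as the constant (−0.82). The probe set 1457627_x_at was called lower in that step only without day 10 replicate 1 (−1.08).

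Fsip1, fibrous sheath interacting protein 1, rose gradually. Probe set 1428035_at lay between 13.2 and 36.1 (median 28.9) on days 0 to 10 and read 40.7 and 47.8 on day 14, 95.9 and 83.1 on day 18 and 152 and 119 on day 20. It read 514 and 512 on day 30 and 538 and 471 on day 35, which overlapped, while the earlier days from day 14 on did not. Its difference into day 18 (0.90 ± 0.21) and into day 20 (0.56 ± 0.21) stayed below the 2-fold limit (the former reached it without day 14 replicate 2 and with the floor, 1.02), and it rose by 1.87 ± 0.21 into day 30 (adjusted p = 8.41e-07). The probe set 1432381_a_at rose by 2.02 ± 0.26 into day 30. It read 2.45 and 2.50 on day 0 and 10.9 and 17.9 on day 10, a rise of 1.09 ± 0.26 close to the level of the controls. That call was lost without day 10 replicate 2 (0.86), with the 40th percentile as the constant (0.57) and with the floor (0).

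Odf1 is a cysteine-rich relative of the small heat shock proteins and a main protein of the outer dense fibres. Probe set 1422585_at lay between 0.943 and 17.4 (median 8.43) on the 12 arrays of days 0 to 14 and read 45.0 and 27.2 on day 18. It read 117 and 180.0 on day 20, 4892 and 4830.4 on day 30 and 6087 and 5453 on day 35, and these 4 days did not overlap. The rises were 1.83 ± 0.33 into day 20 (adjusted p = 0.0017) and 4.99 ± 0.33 into day 30 (adjusted p = 6.16e-10). The other probe sets of Odf1, marked x for probes that can match other transcripts, rose by 4.43 ± 0.42 (1457659_x_at) and 3.65 ± 0.38 (1440821_x_at) into day 30. From day 30 to day 35 the first went from 1626 and 1599 to 841 and 1036 and the second from 827 and 779 to 1157 and 1269. Neither difference was called (−0.78, 95% interval from −1.66 to 0.09, and 0.59, from −0.20 to 1.37). Into day 20, 1440821_x_at rose by 1.81 ± 0.38, which was lost without day 18 replicate 1 (1.26), without day 20 replicate 1 (1.58) and with the floor (0.71). The difference of 1457659_x_at into day 20, 1.34 ± 0.42 (adjusted p = 0.0517), was not called, but it was called without either array of day 0 or day 6, without day 20 replicate 2 (1.80), with the 40th percentile as the constant (1.04), with the filter at the 60th percentile, under quantile normalization (1.60) and with the replicate number as a block (adjusted p = 0.0371).

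Odf2 is a coiled-coil protein of the outer dense fibres, and other isoforms of it, known as cenexin, sit on the centrioles of somatic cells. Its 5 probe sets disagreed. Probe set 1426040_a_at lay between 28.2 and 79.2 (median 44.2) on days 0 to 10 and read 201 and 179 on day 14, 788 and 833 on day 18 and 1311 and 1345 on day 20. It reached 4175 and 3817 on day 30 and 4365 and 4299 on day 35, and no days from day 14 on overlapped. It rose by 1.26 ± 0.13 into day 14 (adjusted p = 6.74e-07), by 2.05 ± 0.13 into day 18 (adjusted p = 5.09e-10) and by 1.58 ± 0.13 into day 30 (adjusted p = 8.86e-09). The difference into day 20, 0.71 ± 0.13, was below the 2-fold limit. Probe set 1435216_a_at had a similar course, between 11.4 and 62.7 on days 0 to 10 and 2791 and 2789 on day 35. It rose by 2.39 ± 0.20 into day 18 and 1.46 ± 0.20 into day 30. Its rise from day 0 to day 10 (1.38 ± 0.20) was lost with the 40th percentile as the constant (0.99) and with the floor (0.54).

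The Odf2 probe set 1454735_at was nearly level, with all 20 arrays between 279 and 453. It read 281 and 331 on day 0, 418 and 444 on day 20 and 331 and 383 on day 35. Its day means spanned 0.61 on the log2 scale, below the 2-fold limit, with an adjusted p = 4.3e-05 in limma's moderated F test. Into day 30 it differed by −0.06 (95% interval from −0.30 to 0.18), and 1426040_a_at by 1.58 (from 1.31 to 1.85). The difference between the probe sets was not itself tested. Probe set 1439918_at read 41.6 and 64.4 on day 0, 87.5 and 110.4 on day 20 and 208 and 213 on day 30. Its rise into day 30 (1.04 ± 0.24) was lost without day 20 replicate 1 (0.88), with a common median (0.84) and with the 40th percentile as the constant (0.95). Probe set 1444101_at lay between 2.48 and 43.6 and did not pass the F test (adjusted p = 0.148). The sources used here do not say which isoforms the probe sets read. With 1 probe set a gene, taken by the highest mean log2 intensity, the level probe set stands for Odf2 and no change of Odf2 is called.

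Odf3, also known as shippo 1, is found along the sperm tail. Probe set 1441916_s_at lay between 0.346 and 9.78 (median 1.11) on the 14 arrays of days 0 to 18 and read 59.8 and 48.2 on day 20, 1724 and 1718 on day 30 and 2249.5 and 2168 on day 35. These 3 days overlapped neither each other nor any earlier day. Probe set 1420446_at read 14.2 and 15.1 on day 20, within the level of the controls, and 1091 and 1153 on day 30. The rises into day 30 were 4.81 ± 0.34 and 5.65 ± 0.29. Since 1420446_at started within the controls, the size of its rise depends on the added constant, and against their 95th percentile it was at least 31.4-fold higher on day 30. Into day 20, 1441916_s_at rose by 2.12 ± 0.34 (adjusted p = 0.000674, and 0.64 and not called with the floor), and 1420446_at differed by 0.44 ± 0.29, which was not called.

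Smcp encodes a cysteine-rich protein of the capsule around the mitochondria of the midpiece. Its probe set lay between 0.311 and 14.4 (median 1.31) on the 14 arrays of days 0 to 18 and read 359 and 258 on day 20, 7233 and 7187 on day 30 and 7573 and 7152 on day 35. Day 20 stood above all earlier arrays and below days 30 and 35, which overlapped. The rises were 4.55 ± 0.36 into day 20 (adjusted p = 3.64e-07) and 4.53 ± 0.36 into day 30 (adjusted p = 6.19e-09). On day 18 it read 3.21 and 8.15, within the controls, so the size of the first rise depends on the added constant. Against the 95th percentile of the controls it was at least 8.53-fold higher on day 20. On day 10 its arrays read 0.997 and 14.4, and without day 10 replicate 1 a rise from day 0 was called (1.41), which both arrays together did not give (0.75 ± 0.36).

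The steps between days can be read against the share of all probe sets called in the same direction. The members were chosen with earlier results of these data known, and 10 passed the filter only through days after day 14. The shares are thus a background and not an independent test of the members. From day 0 to day 10, 2 member probe sets were higher (4.38% of all probe sets) and 1 was lower (4.92%). Into day 14, 3 of 21 were higher, 2 of Ropn1l and 1 of Odf2 (2.64%), and none was lower (0.477%). Without day 10 replicate 2 that count was 5, with Fsip1 1432381_a_at and Odf2 1435216_a_at added, and without day 10 replicate 1 Akap3 1456591_x_at was added (1.18). Into day 18, 9 were higher, of Akap4, Odf1, Odf2 and Ropn1l (11.7%), and none was lower (5.15%). Into day 20, 10 were higher, of 6 genes (1.58%), and none was lower (0.939%). Of these 10, all but Akap3 1456591_x_at and Odf1 1422585_at started within the controls on day 18, and the sizes of the other 8 depend on the added constant. Odf1 1422585_at straddled the level of the controls on day 18 (45.0 and 27.2), so its size may depend on the constant as well. Against the 95th percentile of the controls, 4 of the 8 were at least 2-fold higher on day 20: Smcp (8.53-fold), Ropn1 (4.43-fold), Akap3 1421531_at (2.88-fold) and Akap4 1451661_at (2.07-fold). Akap4 1419019_a_at was at least 1.85-fold higher, Odf1 1440821_x_at at least 1.58-fold and Odf3 1441916_s_at at least 1.504-fold. The geometric mean of Akap4 1451662_x_at on day 20 was at least 1.12-fold higher, but its arrays read 29.0 and 54.7, and the first of these lay within the controls. All folds against the controls given in this text use the geometric mean of the later day's arrays, with no allowance for the spread between them. Into day 30, 17 were higher, of every gene but Ropn1l (8.26%), and none was lower (6.34%). The step into day 30 spans the longest time, with no day between measured. The median difference over the members was 1.05 into day 20 and 3.91 into day 30, against −0.09 and −0.04 over all probe sets tested.

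Of the 9 calls into day 18, the 5 of Akap4 and Odf1 rest on day 18 intensities between 4.76 and 45.0, in the range where the faint end of the scale shifted. Probe set 1422585_at of Odf1 went from 10.0 and 7.32 to 45.0 and 27.2 (1.39 ± 0.33), and 1451661_at of Akap4 from 1.69 and 3.26 to 28.5 and 13.0 (1.42 ± 0.37). With the floor these differences became 0.19 and 0, and none of the 5 was called; with the 40th percentile as the constant none was called either. Quantile normalization ended the calls of Akap4 1451662_x_at (0.91), Odf1 1457659_x_at (0.90) and Odf1 1440821_x_at (0.71), and a common median (0.99) and a fit of the compared days alone ended the last. The call of 1451661_at also ended without day 18 replicate 1 (1.03). Those of the x-marked Odf1 probe sets ended without either array of day 14, and that of 1440821_x_at (1.10 ± 0.38) also without day 18 replicate 2 (0.55, against 1.66 without replicate 1), while that of 1457659_x_at (1.32 ± 0.42) ended without either array of day 18 (1.43 and 1.23). The part of the shift in these calls was not tested.

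From day 30 to day 35 limma called no member in either direction, and 0 of 21 had an unadjusted p under 0.05, where 0.636% of all probe sets were called higher and 1.8% lower. The 95% interval of the difference lay within 2-fold for 16 of 21 probe sets, among them Akap3 1456591_x_at (from −0.47 to 0.48), Ropn1l 1423959_at (from −0.52 to 0.39) and Smcp (from −0.72 to 0.78).

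**Figure D3:**
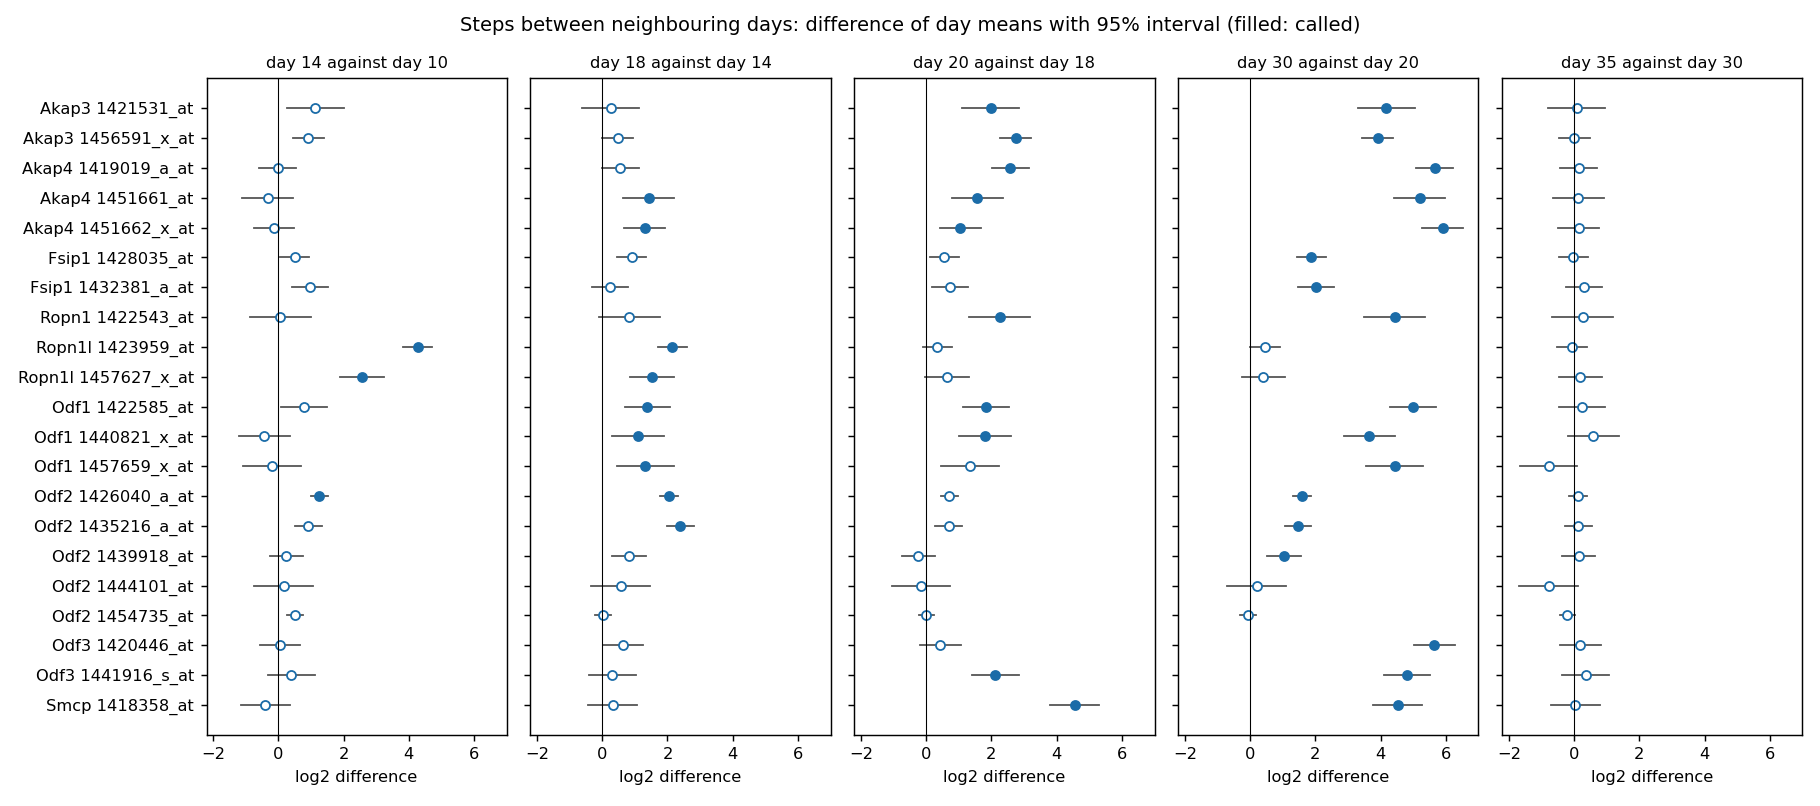
Difference of day means (log2 scale) for each member probe set in 5 steps between measured days, with 95% intervals and filled points for called probe sets. Into day 14 Ropn1l lies farthest to the right (4.27 and 2.57), into day 20 Smcp does (4.55, from a level within the controls), into day 30 Ropn1l lies at 0.45 and 0.41 and Akap4 at up to 5.90, and into day 35 no point is filled.

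The share of its own highest day mean that each gene had reached orders the members without comparing levels between probe sets. It was taken from the probe set with the highest day mean, a choice made after the values were seen. On day 14, Ropn1l had 12.9%, Fsip1 8.62% and Odf2 4.38%, and the other 6 genes at most 0.596%. On day 20, Ropn1l had 73.1%, Odf2 30.7% and Fsip1 26.5%. The other genes followed with 6.5% for Akap3, 4.19% for Smcp, 3.70% for Ropn1, 2.57% for Odf1, 2.44% for Odf3 and 1.61% for Akap4. Neighbours among these are close: the arrays of day 20 read 117 and 180.0 for Odf1 and 359 and 258 for Smcp, a spread that covers the gap from Odf1 to Odf3 and from Smcp to Ropn1. The order also depends on the probe set. On day 20, Odf1 had 4.42% in 1457659_x_at and 4.74% in 1440821_x_at, Odf3 had 1.14% in 1420446_at, Akap4 had 2.30% in 1451661_at, and the level Odf2 probe set 1454735_at was at its highest.

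**Figure D4:**
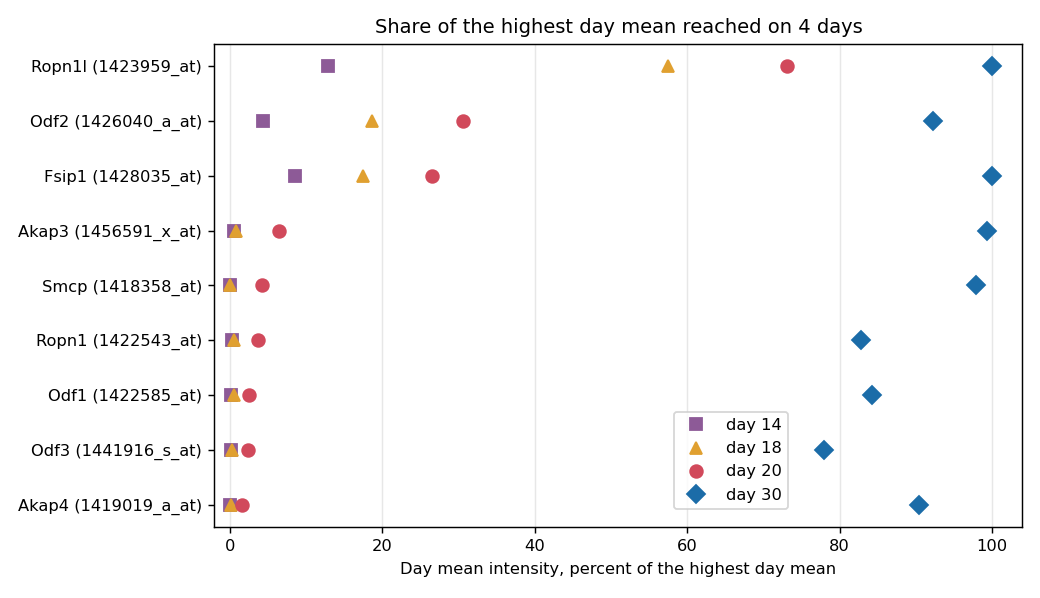
Day mean intensity as a percentage of the highest day mean, for the brightest probe set of each of 9 genes, on days 14, 18, 20 and 30 (markers). On day 20 the genes run from 1.61% (Akap4) to 73.1% (Ropn1l), and on day 30 all are at 77.9% or more.

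Benchmark transcripts place these courses. Ldhc, a lactate dehydrogenase of meiotic and later germ cells, stood at 18.1 ± 5.07 on day 10, 2176 ± 445 on day 14 and 7960.1 ± 171 on day 20. Sycp3, a part of the synaptonemal complex, stood at 3417 ± 63.8 on day 14, 3542 ± 189 on day 18 and 3354 ± 278 on day 20, with no call between these days. Acrv1, an acrosomal protein, rose by 1.54 ± 0.36 into day 18, 2.24 ± 0.36 into day 20 and 3.16 ± 0.36 into day 30, the first 2 from within the controls. Tnp1 and Prm1, which package the DNA of elongating spermatids, stood at 44.7 ± 19.5 and 25.9 ± 6.47 on day 20 and rose by 7.58 ± 0.28 and 8.15 ± 0.42 into day 30. Prm1 was within the controls on day 20, and against their 95th percentile it was at least 266-fold higher on day 30. Ropn1l, like Ldhc (6.39 ± 0.22), rose into day 14. Akap3, Akap4, Odf1, Odf3, Ropn1 and Smcp, like Acrv1 and Tnp1, had a probe set called into both day 20 and day 30. The rise of Tnp1 into day 20 was 2.27 ± 0.28, from within the controls. These calls therefore do not place the members with Acrv1 rather than Tnp1. Of these members, only Akap4 and Odf1 were, like Acrv1, also called into day 18.

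Other genes of the tail were measured with 1 probe set a gene. Of 11 further genes of the fibrous sheath and outer dense fibres, 2 rose into day 14, 6 into day 18, 4 into day 20 and 7 into day 30, and none fell in these steps. Among all probe sets 2.64%, 11.7%, 1.58% and 8.26% were called higher in the same steps. Their median difference into day 30 was 1.86. The largest rises into day 30 were those of Gapdhs, the sperm glyceraldehyde phosphate dehydrogenase bound to the sheath (5.13 ± 0.20), Aldoart1, an aldolase retrogene (4.44 ± 0.34), and Spag4, a partner of Odf1 (4.01 ± 0.30). Aldoart1 was within the controls on day 20, so its place depends on the added constant, and against their 95th percentile it was at least 15.5-fold higher on day 30. Spa17, a sheath protein with a docking domain like that of Ropn1l, went from 169 ± 11.9 on day 10 to 1177 ± 75.9 on day 14, and Cabyr, a calcium-binding protein of the sheath, from 26.9 ± 0.930 on day 18 to 117 ± 4.55 on day 20 and 1109.8 ± 3.58 on day 30. Over the alternatives the count ran from 4 to 6 into day 18 and from 1 to 4 into day 20, where it was 1 without any single array of day 18 or day 20.

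Among all probe sets, 2.64% were called higher into day 14, 11.7% into day 18, 1.58% into day 20 and 8.26% into day 30. Of 6 genes of the mitochondrial sheath and annulus, 3 rose into day 14, 3 into day 18, 1 into day 20 and 2 into day 30. The last were Spata19, a mitochondrial protein of the midpiece (4.93 ± 0.30), and Septin4, a septin of the annulus (2.36 ± 0.19). Over the alternatives the count of this list into day 14 ran from 2 to 3. Of 6 genes of the connecting piece and manchette, 1 rose into day 14, 3 into day 18, 1 into day 20 and 4 into day 30, led by Oaz3 (5.10 ± 0.39), Spatc1 (4.51 ± 0.32) and Sun5 (3.42 ± 0.37). Spatc1 started within the controls and was at least 8.98-fold higher on day 30 against their 95th percentile. Over the alternatives the counts of the connecting piece and manchette genes ran from 1 to 2 into day 14 (2 without day 14 replicate 2) and from 1 to 3 into day 18 (1 without day 14 replicate 2). Into day 20 they ran from 0 to 2 (2 without day 18 replicate 2 or day 20 replicate 2). Of 3 subunits of protein kinase A, the enzyme that the scaffolds hold, none was called in any step up to day 30 in the main fit. Over the alternatives the count of subunits called lower into day 18 ran from 0 to 1. The regulatory subunit Prkar2a fell from 133 ± 18.6 on day 30 to 60.7 ± 4.43 on day 35 (−1.04 ± 0.15). That call lies at the 2-fold limit and was lost without day 30 replicate 2, without day 35 replicate 1, with the 40th percentile as the constant, with a common median and in a fit of the compared days alone.

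Genes of most similar course were sought among 14960 other genes with names that are not clone identifiers, by Pearson's r of the 10 log2 day means, a description over points that share arrays. The 2 closest to Akap3 were Prr32 (0.998) and Fam229a (0.994), to Akap4 Carlr (0.998) and Ccdc54 (0.998), and to Fsip1 Lrrc9 (0.992) and Fam166c (0.991). Those of Ropn1 were Spaca7 (0.999) and Cabyr (0.998), and those of Ropn1l Armc3 (0.998) and Slc2a3 (0.997). For Odf1 they were Lyzl6 (0.998) and Prr30 (0.998), for Odf3 Znrf4 (0.999) and Tssk2 (0.999), and for Smcp Nipsnap3a (0.998) and Fam122c (0.998). For the level probe set of Odf2 they were Ccdc157 (0.983) and Fchsd1 (0.975). Some of the genes named here were faint, with a highest day mean of 41.1 for Fchsd1 and 91.7 for Prr32. For the rising Odf2 probe set 1426040_a_at, chosen after its values were seen, the 2 closest were Phkg2 (0.997) and Dnajb3 (0.996). Among the members, r of the day means ran from 0.405 between Akap4 and the level probe set of Odf2 to 0.995 between Akap4 and Odf3. Without Odf2 the lowest was 0.726, between Akap4 and Ropn1l.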

How the data were processed

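Biotin labelling used a one-cycle 3′ kit, per the labels' protocols. The deposited values are 1 linear intensity per probe set and array, and all 20 arrays share the same 2% trimmed mean. The number of arrays limits the precision, and the software and genome build are not given in the sources used here. After leaving out 64 control probe sets, those above the 40th percentile of their array on at least 2 arrays were tested, on log2 of the deposited intensity plus the constant.

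limma 3.58.1 in R 4.3.3 (lmFit, eBayes with trend, two-sided) fitted day as a factor of 10 levels over all arrays (10 residual and 9.37 prior degrees of freedom), after being tested on simulated data. Named genes are all members, the 3 largest called rises into day 30 of each list, benchmarks, markers and the 2 genes of most similar course. Spa17, Cabyr and Prkar2a were named after their values were seen. Members and lists were chosen with earlier results of these data known. Same-numbered arrays of different days did not deviate together (correlations from −0.03 to 0.09 over 45 pairs of days), and the main fit used no pairing by number. Such correlations cannot show whether same-numbered arrays shared a batch. Alternatives changed the constant, filter, scaling, floor, probe sets, thresholds, arrays and block. Python 3.11.15 and matplotlib 3.10.9 drew the plots.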

Additional observations from a re-analysis of the deposited data

How the results depend on the processing

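No called difference of a member changed direction under any alternative run. Counts that moved by more than 1.5 times are given here, steps being named by their later day (day 10 against day 0). The reported counts of member probe sets were 19 over the time course and 3 into day 10, 3 into day 14, 9 into day 18, 10 into day 20, 17 into day 30 and 0 into day 35, and those of all probe sets 27243 and 3468 into day 10, 1164 into day 14, 6276 into day 18, 940 into day 20, 5443 into day 30 and 910 into day 35. With the constant at the 5th percentile there were 6 members into day 14. At the 40th members numbered 0 into day 10 and 4 into day 18, and all probe sets 2289 into day 10, 3582 into day 18, 546 into day 20, 3503 into day 30 and 444 into day 35. With the floor members numbered 1 into day 10, 5 into day 18 and 6 into day 20, and all probe sets 3369 into day 18, 534 into day 20 and 337 into day 35. With 1 probe set a gene, so fewer tested, there were 8 members over the time course and 1 into day 10, 1 into day 14, 3 into day 18, 6 into day 20 and 7 into day 30, and of all 12748 and 1810 into day 10, 762 into day 14, 2837 into day 18, 576 into day 20, 2722 into day 30 and 322 into day 35. With no minimum size members numbered 7 into day 14, and all probe sets 8691 into day 10, 3454 into day 14, 13294 into day 18, 3335 into day 20, 12513 into day 30 and 2128 into day 35. With an adjusted p under 0.01 all probe sets numbered 440 into day 20 and 266 into day 35, and with the compared days alone, so fewer arrays, 534 into day 20 and 21 into day 35. Without x- and s-marked members, chosen after seeing the data, members numbered 5 into day 18 and 6 into day 20. Leaving out 1 array gave 19 to 20 members over the time course, 2 to 4 into day 10, 3 to 5 into day 14, 7 to 9 into day 18, 7 to 11 into day 20, 16 to 17 into day 30, 0 to 0 into day 35, and of all 26566 to 27417, 2712 to 3632 into day 10, 922 to 1226 into day 14, 4820 to 6473 into day 18, 529 to 1093 into day 20, 5095 to 6305 into day 30, 759 to 1457 into day 35; the lowest into day 20 came without day 18 replicate 1 and the highest into day 35 without day 30 replicate 1. The replicate block gave 11 members into day 20 (Odf1 1457659_x_at added) and 17 into day 30, and it changed no other member count. A common median shifted the median of all probe sets by −0.25 into day 18, −0.16 into day 30 and 0.19 into day 35, and quantile normalization by −0.11 into day 18. The share of calls that were higher went from 69.4% to 54.2% (quantile) and 41.9% (common median) into day 18, from 62.8% to 74.3% (common median) into day 20, from 56.6% to 37.1% (common median) into day 30, and from 26.0% to 53.5% and 55.7% into day 35. Except where stated, the cause was not tested. Member intensities near the controls, mainly up to day 18, limit what can be said of small early differences.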
